A study of Bos grunniens with 6 samples.

Results

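The genes described here are 7 genes of the smooth muscle thin filament and its partners, together with myocardin, the coactivator that switches such genes on in muscle. They were taken by symbol from a table of 15646 genes measured in cultured cells of the yak (Bos grunniens) hair follicle, where each of the 8 symbols had 1 row. Dermal papilla cells (DPC) are the mesenchymal cells at the base of the follicle that signal to its epithelium. Hair matrix cells (HMC) are epithelial, lie against the papilla, and give rise to the hair shaft by dividing. There were 3 cultures of DPC and 3 of HMC, all wild type, isolated from skin and grown in the same medium, DMEM/F12 with 10% fetal bovine serum, the growth factors EGF at 20 ng/mL and IGF1 at 10 ng/mL, and 1% penicillin-streptomycin. The labels call the cultures biological replicates and do not say whether they came from separate animals, so p-values measure the spread between these cultures only.

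In smooth muscle, actin and myosin filaments slide past each other, and the actin filament carries tropomyosin, calponin and transgelin. Most of these genes are read by serum response factor (SRF), a transcription factor that needs a coactivator. Myocardin (MYOCD) is the coactivator restricted to cardiac and smooth muscle in mouse, while its relatives MRTFA and MRTFB are widespread and respond to actin dynamics. Papilla cells in culture are known to carry smooth muscle alpha-actin.

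The unit throughout is FPKM, fragments scaled to gene length and to the mapped fragments of the library, so levels of different genes can be set beside each other within a library. The whole reads behind the values could be recovered from the table and summed to between 13098760 and 13382123 in DPC libraries and between 13694761 and 13999664 in HMC libraries, as lower limits. Lists of epithelial markers and of papilla and mesenchyme markers mostly went with the labels. They set epithelium apart from mesenchyme, but did not test whether HMC were matrix cells rather than other epithelium. Of 14 epithelial markers 13 were higher in HMC, led by the keratins KRT7, KRT8 and KRT18, with KRT19 the most abundant, and their summed level was 92.4 to 122 FPKM in DPC, against 14030 to 14440 FPKM in HMC. Of 9 tested papilla and mesenchyme markers 8 were higher in DPC, led by TWIST1, ITGA8 and CDH11, with a summed level over 11 genes of 6225 to 6632 FPKM in DPC, against 489 to 567 FPKM in HMC. The exception was LEPR, higher in HMC. Vimentin (VIM) was the most abundant and made up most of each sum, at 5252 to 5668 FPKM in DPC and 353 to 434 FPKM in HMC. The papilla markers ALPL and CORIN were near 0 in both cell types. Endothelial, immune and melanocyte or Schwann markers each summed to at most 13.3 FPKM in any library, with PECAM1, CDH5 and CD3E near 0. Of 6 tested genes of those lists, VWF, CD14, SOX10 and PMEL were higher in HMC, S100B was higher in DPC and CD68 was not called. With the replicate number as a block, only 1 of the melanocyte and Schwann genes was called higher in HMC. All marker counts here are calls of the limma test described below. They stand beside 29.7% of all tested genes higher in DPC and 46.2% higher in HMC.

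DPC had far higher mRNA of smooth muscle alpha-actin, gamma-actin, calponin 1 and tropomyosin 2 than HMC, and HMC had far higher mRNA of myocardin. Transgelin and CSRP1 were abundant in both cell types and higher in DPC, and calponin 2 was abundant in both and higher in HMC. All 8 genes passed the limma test on log2(FPKM + 1) at an adjusted p of 0.05, 6 of them higher in DPC and 2 higher in HMC. That has to be read against the whole table, where 75.9% of 11883 tested genes passed, 29.7% higher in DPC and 46.2% higher in HMC. Of all calls 39.1% were higher in DPC as deposited, 48.8% after median-of-ratios scaling and 53.8% after quantile normalization, and the 8 genes kept their directions under both. Called differences of at least 2-fold on the log2(FPKM + 1) scale were found for 4 of the 8 toward DPC, against 11.0% of all tested genes, and for 1 toward HMC, against 16.1%, where 27.1% of all tested genes reached that size in either direction. None of the 8 overlapped between the groups, as was true of 77.9% of all tested genes. The median log2 difference, DPC minus HMC, was 3.12 over the 8 genes and -0.15 over all tested genes.

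**Figure D1:**
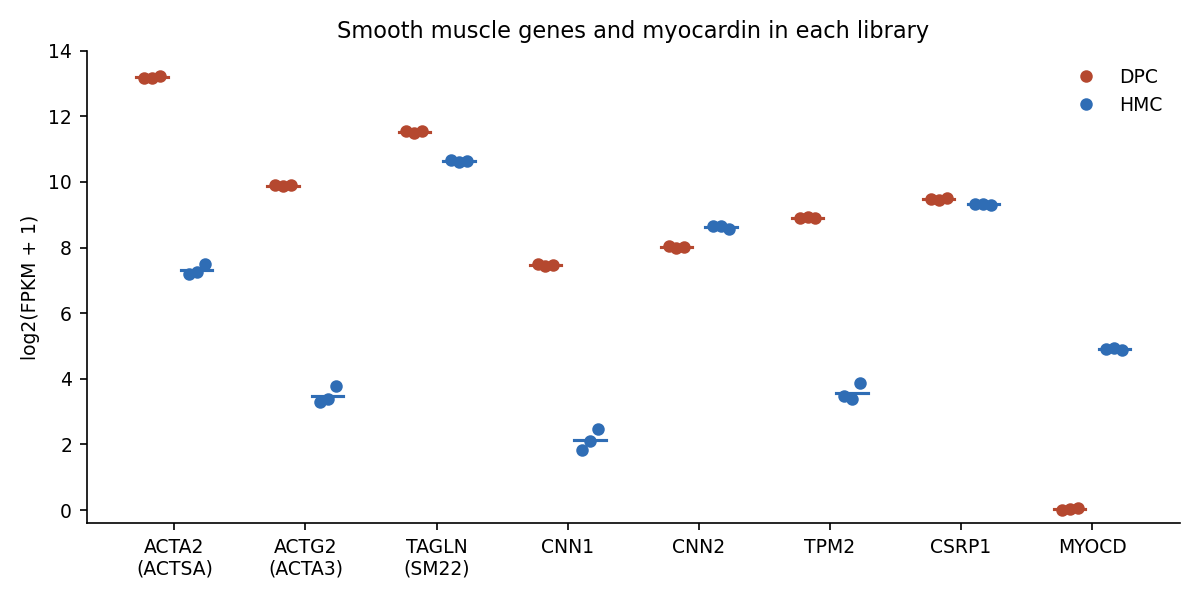
Each point is 1 library, with log2(FPKM + 1) on the vertical axis and the 8 genes along the horizontal axis, DPC left of HMC, and the short lines are group means. ACTA2, ACTG2, CNN1 and TPM2 stand far higher in DPC, MYOCD stands far higher in HMC, and TAGLN, CNN2 and CSRP1 lie close together in both.

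The actins are the protein of the thin filament itself. ACTA2 (in the table Actsa, ENSBGRG00000017216), the smooth muscle alpha-actin of vessels and myofibroblasts, had 9178, 9262 and 9524 FPKM in the DPC cultures, against 146, 151 and 180 FPKM in the HMC cultures. It was the gene of rank 3 by mean FPKM in DPC, against rank 625 in HMC, and it took 1.07 to 1.11% of recovered reads in DPC libraries and 0.0171 to 0.0211% in HMC libraries. The ratio of mean FPKM was 58.6, and the log2 difference was 5.87 (SE 0.07, limma adjusted p = 1.35e-10, n = 3 each). ACTG2 (in the table Acta3, ENSBGRG00000010869), the gamma-actin of gut and other visceral smooth muscle, had 953, 939 and 951 FPKM in DPC, against 8.71, 9.34 and 12.7 FPKM in HMC. Its ratio of means was 92.5 and its log2 difference 6.42 (SE 0.11, limma adjusted p = 7.12e-10), the largest toward DPC among the 8 genes. The lowest DPC library lay far above the highest HMC library for both actins, and HMC replicate 3 was the highest HMC library for both.

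Calponin and tropomyosin lie along the filament and regulate its contact with myosin. CNN1 (ENSBGRG00000013580), the calponin of differentiated smooth muscle, had 180, 172 and 177.5 FPKM in DPC, against 2.56, 3.32 and 4.52 FPKM in HMC, where it rested on 77, 101 and 139 recovered reads. The ratio of its means was 51.0 and the log2 difference 5.34 (SE 0.14, limma adjusted p = 6.13e-09). TPM2 (ENSBGRG00000004079), the beta-tropomyosin, had 480, 485 and 482 FPKM in DPC, against 10.2, 9.36 and 13.7 FPKM in HMC. Its ratio of means was 43.5 and its log2 difference also 5.34 (SE 0.12, limma adjusted p = 2.16e-09). DPC replicates differed little for both genes, while HMC replicate 3 was again the highest HMC library.

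CNN2 (ENSBGRG00000008721), a calponin of non-muscle as well as muscle cells, went the other way. It had 264, 255 and 259 FPKM in DPC, against 406, 402 and 381 FPKM in HMC, with a log2 difference of -0.61 (SE 0.04, limma adjusted p = 1.02e-06). The 2 calponin genes thus lay on opposite sides, CNN1 higher in DPC and CNN2 higher in HMC, with no overlap between groups for either.

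TAGLN (in the table SM22, ENSBGRG00000025309), transgelin, is an actin cross-linking protein used as an early smooth muscle marker. It had 2989, 2867 and 2999 FPKM in DPC, against 1614, 1555 and 1583 FPKM in HMC, a ratio of means of 1.86 and a log2 difference of 0.90 (SE 0.03, limma adjusted p = 1.92e-08). It ranked 13 by mean FPKM in DPC and 38 in HMC, so unlike ACTA2 it was among the most abundant mRNAs of both cell types. CSRP1 (ENSBGRG00000026123), a LIM domain protein of the actin cytoskeleton, had 715, 697 and 730 FPKM in DPC, against 647, 638 and 632 FPKM in HMC. Its groups did not overlap, but the difference was small, with a ratio of means of 1.12 and a log2 difference of 0.16 (SE 0.03, limma adjusted p = 0.00132).

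MYOCD (ENSBGRG00000017767) had 0, 0.0234 and 0.0462 FPKM in DPC, against 28.8, 29.96 and 28.2 FPKM in HMC. The DPC values stood for 0, 1 and 2 recovered reads and the HMC values for 1290, 1358 and 1292. The cell type with the high actin, calponin and tropomyosin levels was thus the one in which myocardin mRNA was at or near 0. From 3 reads in DPC and 3940 in HMC, the DPC level was 0.0798% of the HMC level (95% exact binomial interval 0.0165 to 0.233%, counting error only). The log2 difference was -4.87 (SE 0.07, limma adjusted p = 2.45e-10), a value that understates the ratio because 1 FPKM is added before the log, and it was -7.90 when 0.1 FPKM was added.

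**Figure D2:**
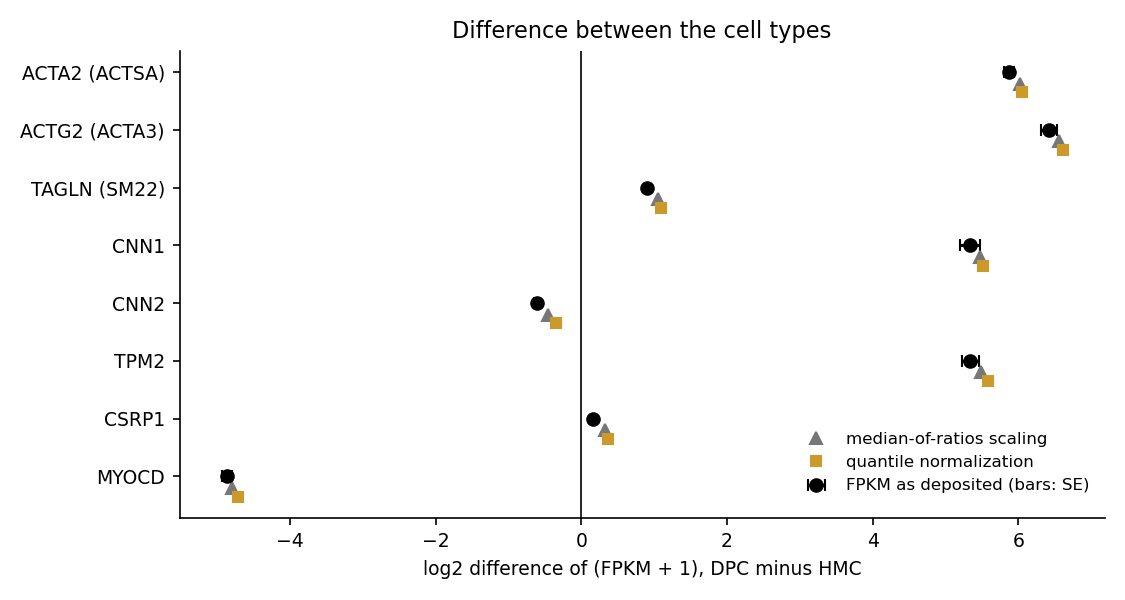
Log2 difference of (FPKM + 1), DPC minus HMC, for each of the 8 genes, with the SE of the limma fit as bars on FPKM as deposited, and the same difference after median-of-ratios scaling and after quantile normalization. Every gene keeps its side of 0 under the 3 scalings, with MYOCD at -4.87, -4.79 and -4.71 and ACTG2 at 6.42, 6.56 and 6.61.

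The order of the 8 genes by FPKM differed between the cell types. In DPC it ran ACTA2, TAGLN, ACTG2, CSRP1, TPM2, CNN2, CNN1 and MYOCD, and no neighbours in that order overlapped between libraries. In HMC it ran TAGLN, CSRP1, CNN2, ACTA2, MYOCD, TPM2, ACTG2 and CNN1, where TPM2 was above ACTG2 in each of the 3 libraries, by as little as 9.362 against 9.342 FPKM in replicate 2, and their ranges over the libraries overlapped. In DPC the coefficient of variation between cultures was 0.574 to 2.49% for the 7 genes other than MYOCD. In HMC it was 11.7% for ACTA2, 20.9% for both ACTG2 and TPM2 and 28.5% for CNN1, but 1.24 to 3.37% for TAGLN, CNN2, CSRP1 and MYOCD.

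The 4 genes that varied most in HMC were those far higher in DPC, and each was highest in HMC replicate 3. As a percentage of the DPC mean, HMC replicates 1, 2 and 3 held 1.57, 1.62 and 1.93% for ACTA2, 0.919, 0.986 and 1.34% for ACTG2, 1.45, 1.88 and 2.56% for CNN1, and 2.11, 1.94 and 2.84% for TPM2. Of the 8 papilla markers higher in DPC, 6 were also highest in HMC replicate 3. Their median stood at 1.32, 1.80 and 2.02% of the DPC mean in HMC replicates 1, 2 and 3, within a range of 0 to 7.87% over single genes, and the level of ITGA8 in HMC replicate 3 was 0. Their part in the HMC values of the 4 genes was not tested. In bulk cultures fewer cells of a type and less RNA per cell cannot be told apart. TAGLN stood at 54.7, 52.7 and 53.6% of the DPC mean in the same HMC libraries and was highest in replicate 1. Without HMC replicate 3 the log2 differences were 5.96 for ACTA2, 6.56 for ACTG2, 5.50 for CNN1 and 5.49 for TPM2. In the other direction, the 13 epithelial genes higher in HMC stood in DPC at a median of 0.479% of the HMC mean, with single values of up to 14.6% for KRT17. MYOCD stood there at 0, 0.0807 and 0.159%.

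**Figure D3:**
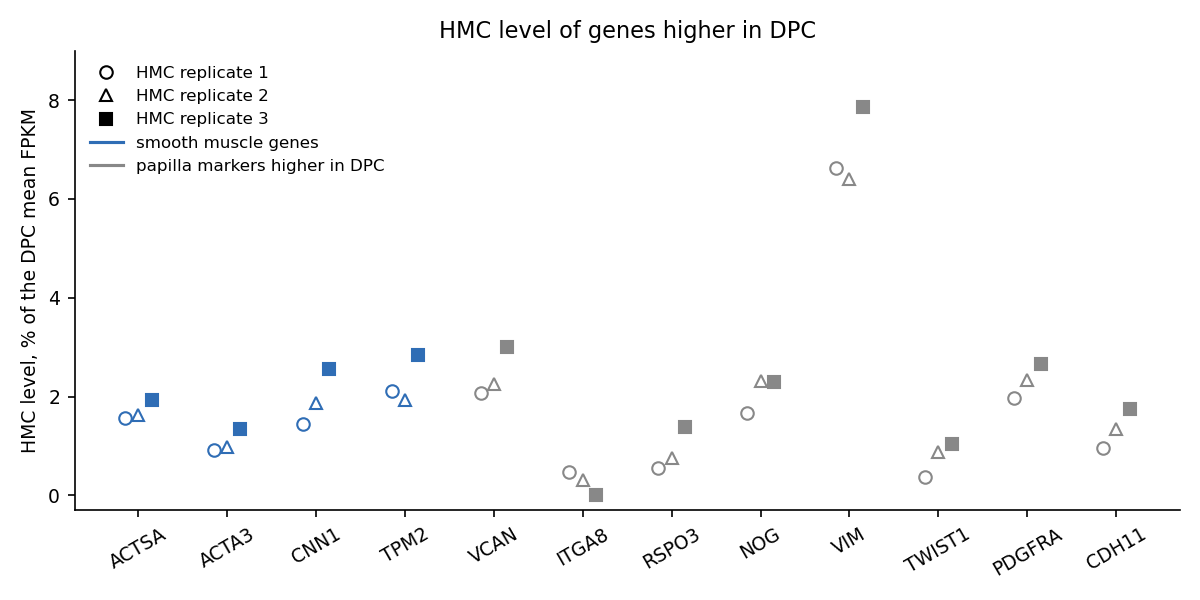
FPKM in HMC replicates 1, 2 and 3 as a percentage of the DPC mean, for the 4 smooth muscle genes far higher in DPC and for the 8 papilla markers higher in DPC. All 4 smooth muscle genes lie between 0.919 and 2.84% and are highest in HMC replicate 3, as 6 of the 8 papilla markers are.

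ACTA2, ACTG2, CNN1, TPM2 and TAGLN each held a larger share of the FPKM of their gene family in DPC. ACTA2 made up 42.6, 44.2 and 43.2% of the summed FPKM of the actin genes in DPC, against 0.869, 0.879 and 1.02% in HMC, and ACTG2 held 4.40 ± 0.085% in DPC and 0.0593 ± 0.011% in HMC (SD, n = 3 each). The cytoplasmic actins ACTB and ACTG1, the actins of non-muscle cells, were both higher in HMC. The summed actin level itself was 21530 ± 548 FPKM in DPC, against 17220 ± 475 FPKM in HMC. CNN1 held 34.1 ± 0.18% of calponin FPKM in DPC and 0.638 ± 0.20% in HMC, while the calponin sum was 517 ± 8.98 FPKM in DPC, against 545 ± 11.7 FPKM in HMC. The share of TPM2 among tropomyosins was 22.2 ± 0.079% in DPC and 0.731 ± 0.13% in HMC, with TPM4 the most abundant in both. TAGLN held 71.9 ± 0.27% of transgelin FPKM in DPC and 40.0 ± 1.22% in HMC, where TAGLN2, the widely expressed form, held the larger share. The shares did not overlap between groups, and the exact two-sided permutation test gave p = 0.1 for each of the 5 shares, the smallest that 3 against 3 allows. ACTC1 and TPM1 are not analysed here, and the share of TPM2 therefore lacks TPM1.

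Actin genes are similar enough for reads to be shared, and the sources used here do not say how the authors' counter treated them, so single actin values are uncertain. ACTA1 (in the table ACTA), the skeletal muscle actin, had 0.137, 0.0562 and 0.194 FPKM in DPC, where ACTA2 was at least 9178 FPKM, against 2.92, 1.77 and 3.64 FPKM in HMC. For TPM4, TPM3 and CNN3 more than 1 row carried the symbol, and the row with the higher mean was used. With all rows of a symbol summed, the share of TPM2 in DPC exceeded that in HMC by 16.8 percentage points, against 21.4 with 1 row per gene.

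**Figure D4:**
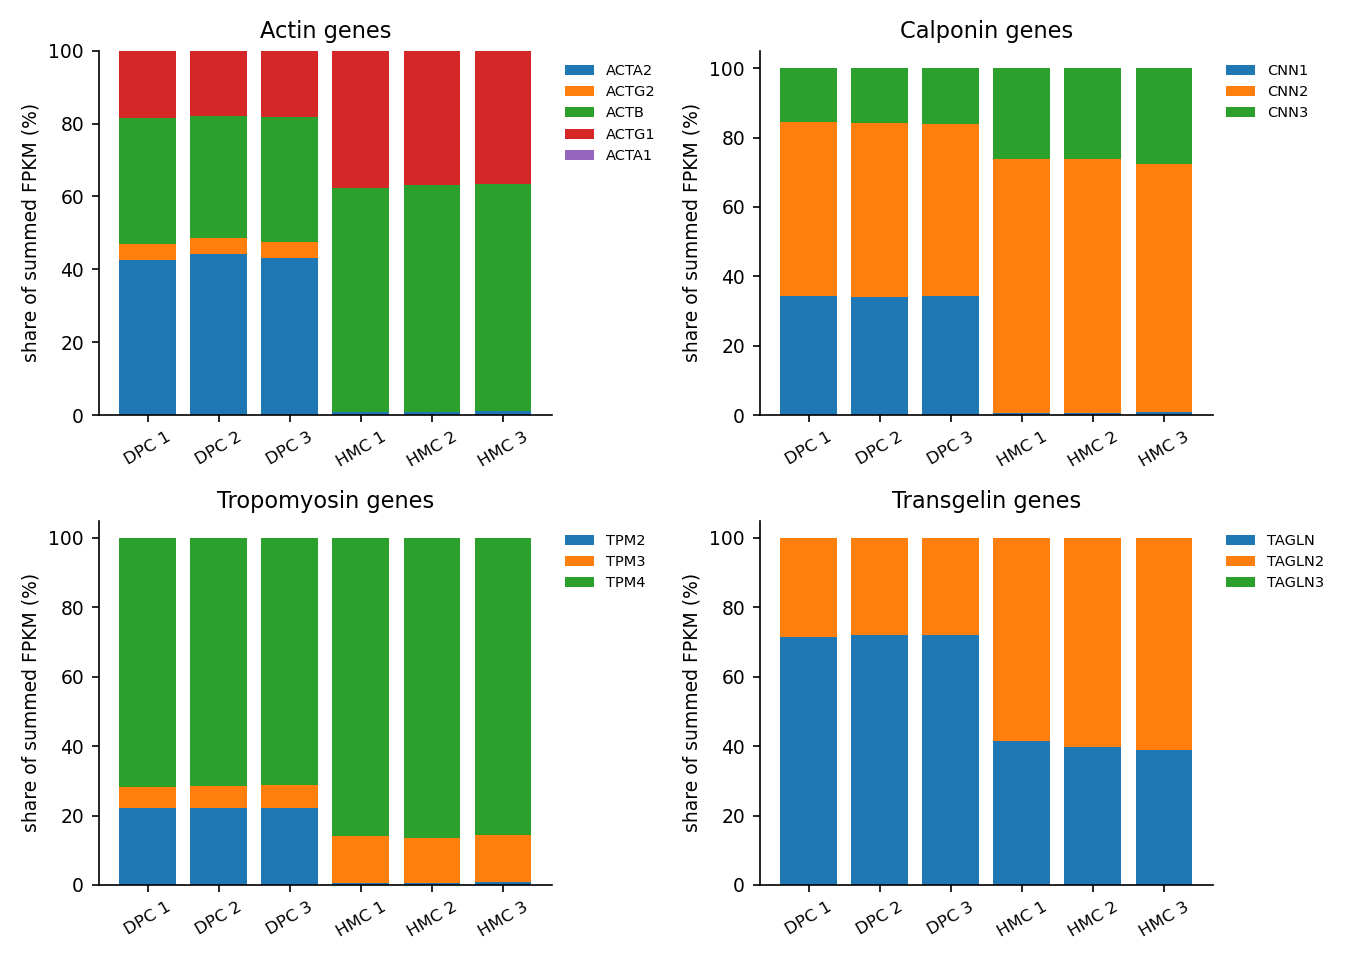
Stacked bars give the share of each gene in the summed FPKM of its family, in percent, for the 3 DPC and the 3 HMC libraries. ACTA2 fills 42.6 to 44.2% of actin FPKM in DPC and 0.869 to 1.02% in HMC, and CNN1 and TPM2 are likewise visible in the DPC bars and almost absent from the HMC bars.

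A wider contractile list, which also held adhesion receptors, LIM domain proteins and a channel subunit, went both ways. Of 40 listed, 35 were in the table and 31 were tested, of which 17 were higher in DPC, 13 were higher in HMC and 1, TAGLN3, was not called. Over all tested genes 29.7% were higher in DPC and 46.2% higher in HMC, so the count toward HMC was near that of the whole table. Called differences of at least 2-fold were found for 13 toward DPC and 6 toward HMC, against 11.0% and 16.1% of all tested genes, and the median log2 difference was 0.41, beside -0.15 over all tested genes. The largest toward DPC were those of the focal adhesion protein TNS1 (4.52), of MYLK (4.33), the kinase that starts smooth muscle contraction by phosphorylating the myosin light chain, and of the collagen receptor ITGA1 (3.81). MYLK (in the table MLCK) had 24.2, 24.2 and 22.4 FPKM in DPC, against 0.241, 0.213 and 0.211 FPKM in HMC (limma adjusted p = 4.93e-10). Caldesmon (CALD1, in the table CAD), which restrains the myosin ATPase, had 346 ± 8.58 FPKM in DPC, against 86.8 ± 1.75 FPKM in HMC (SD, n = 3 each). Leiomodin 1 (LMOD1), an actin nucleator of smooth muscle, had 60.5 ± 0.494 FPKM in DPC, against 19.1 ± 1.30 FPKM in HMC, and both were called.

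Toward HMC the largest were the laminin receptor ITGA7 (-5.14), the LIM domain cofactor FHL2 (-1.91) and KCNMB1 (-1.88), a subunit of the calcium-activated potassium channel that relaxes smooth muscle. ITGA7 (in the table UNQ406/PRO768) had 0.148, 0.130 and 0.128 FPKM in DPC, against 39.1, 40.4 and 37.8 FPKM in HMC. FHL2 had 101, 105 and 103 FPKM in DPC, against 395, 391 and 379 FPKM in HMC. TAGLN2, the most abundant gene of the list over both cell types, was also higher in HMC (-1.04). The row called MYRL2, an older symbol of MYL9, had 533, 530 and 589 FPKM in DPC, against 625, 600 and 594 FPKM in HMC. Its log2 difference was -0.14 as deposited (limma adjusted p = 0.0241) but 0.02 after median-of-ratios scaling and 0.13 after quantile normalization. Those scalings put the median of all tested genes at -0.02 and 0.05, against -0.15 as deposited. The file's annotation does not separate MYL9 from the closely related MYL12 genes, so the identity of that row is uncertain.

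The heavy chain MYH11 (in the table KIAA0866), the motor of differentiated smooth muscle, was low in both cell types, at 0.236, 0.102 and 0.1003 FPKM in DPC, against 0.133, 0.0719 and 0.0119 FPKM in HMC. Those values stood for at most 19 recovered reads, and MYH11 fell below the mean of 0.5 FPKM required for the test. Desmin (DES), the muscle intermediate filament, was likewise near 0 and averaged 0.0490 FPKM in DPC, against 0.0820 FPKM in HMC. The high ACTA2, CNN1 and TPM2 of DPC thus stood beside MYH11 and DES near 0.

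**Figure D5:**
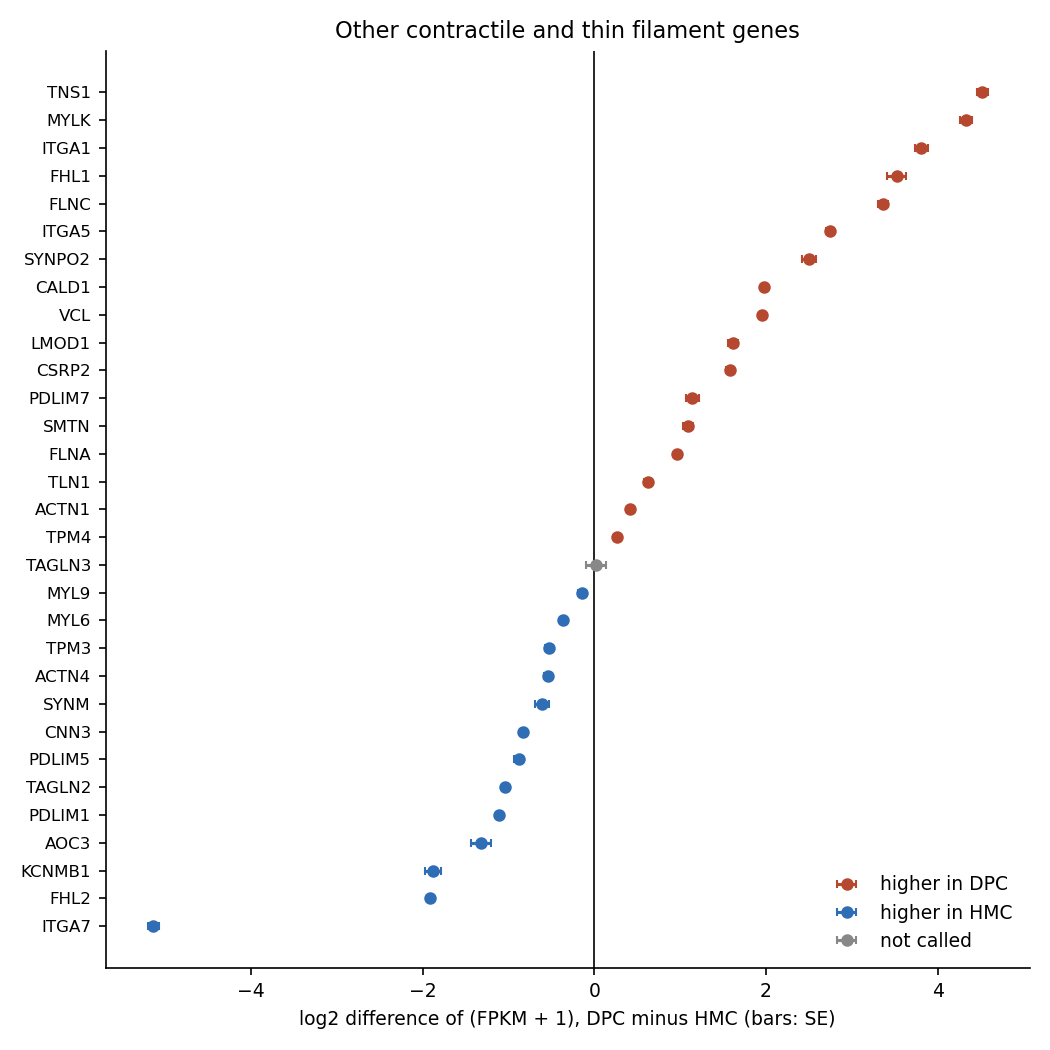
Log2 difference of (FPKM + 1) as deposited, DPC minus HMC, with SE bars, for the 31 tested genes of the contractile list, coloured by the limma call. TNS1 at 4.52 and MYLK at 4.33 lie at the DPC end, and ITGA7 at -5.14 lies alone at the HMC end. The point labelled MYL9 is the row called MYRL2, whose identity is uncertain and whose side changes under the scalings, which are not drawn here.

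SRF and the coactivators other than myocardin differed far less than MYOCD. SRF had 54.0, 51.85 and 52.1 FPKM in DPC, against 39.0, 38.3 and 40.8 FPKM in HMC (log2 difference 0.41, limma adjusted p = 6e-05). MRTFA had 24.4, 25.4 and 26.6 FPKM in DPC, against 19.25, 18.4 and 18.9 FPKM in HMC, a log2 difference that was also 0.41. MRTFB was higher in HMC, at 3.79, 3.50 and 3.95 FPKM in DPC, against 6.06, 6.62 and 5.93 FPKM in HMC (log2 difference -0.60). MRTFA was therefore the most abundant of the 3 coactivators in DPC, and MYOCD the most abundant in HMC.

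Of 26 tested regulators of smooth muscle transcription, 16 were higher in DPC, 8 were higher in HMC and 2, ELK1 and FOXO4, were not called, where 29.7% of all tested genes were higher in DPC and 46.2% higher in HMC. With a mean of at least 5 FPKM required, the count toward DPC was 10. The largest toward DPC were the receptor PDGFRB (4.35), the mesenchymal homeobox factor PRRX1 (3.72), most abundant in the list, and KLF4 (3.50), a repressor of smooth muscle genes in mouse vessels. KLF4 (in the table EZF) had 36.9, 31.8 and 36.7 FPKM in DPC, against 2.05, 1.80 and 2.81 FPKM in HMC. The largest toward HMC were PDGFB (-6.83), a ligand of PDGFRB that lowers smooth muscle gene expression in vascular cells, the TGF-beta receptor TGFBR2 (-2.93) and the Notch target HEY1 (-2.78). PDGFB had 0.571, 0.106 and 0.157 FPKM in DPC, against 145, 141 and 142 FPKM in HMC, so the ligand and its receptor lay on opposite sides.

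SRF also reads genes outside muscle, and of 14 tested in that list 4 were higher in DPC and 10 in HMC, against 29.7% and 46.2% of all tested genes, so the count toward DPC was near that of the whole table. The median log2 difference of the list was -0.62, beside -0.15 over all tested genes. Toward DPC went the matricellular gene CCN2 (2.38), the adhesion protein vinculin (VCL, 1.95), the early response factor EGR1 (1.85) and SRF itself. Toward HMC the largest were FOS (-2.19), FHL2 and ANKRD1 (-1.63), and ACTB was the most abundant gene of the list. CCN1 (-0.12) was called higher in HMC as deposited but stood at 0.03 and 0.11 after median-of-ratios scaling and quantile normalization.

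Of 37 striated muscle genes listed, 20 were found, and most of those were low in both cell types. Only 3 of the 20 found reached the mean required for the test. Troponin C (TNNC1, in the table TNNC), the calcium sensor of cardiac and slow skeletal muscle, had 0.458, 0 and 0.154 FPKM in DPC, against 15.2, 14.9 and 11.8 FPKM in HMC (log2 difference -3.64, limma adjusted p = 1.16e-07). ACTA1 was also higher in HMC (-1.71), and HAND2, a factor of heart and limb mesenchyme, was higher in DPC (20.2 ± 1.30 FPKM, against 0.383 ± 0.25 FPKM in HMC). The other 17 of those found, among them MYF5, PAX7, NKX2-5 and GATA4, averaged below 0.5 FPKM over the 6 libraries. With no filter on low values, 6 genes of the list were called higher in HMC, against 2 with it. The HMC cultures, with MYOCD at 28.2 to 29.96 FPKM, had more TNNC1 than DPC, and more ITGA7 of the contractile list. They had far less ACTG2, CNN1 and MYLK than DPC, and MYH11 was near 0 in both cell types. Mean FPKM of the cardiac myosin gene MYH6 was 0.013 (DPC) and 0.652 (HMC). For MYL2 it was 0 (DPC) and 0.758 (HMC). Whether MYOCD had a part in any of these levels was not tested.

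Markers of other cells that carry smooth muscle genes were examined for the same libraries, and their counts stand beside 29.7% of all tested genes higher in DPC and 46.2% higher in HMC. In the list of pericytes and vascular smooth muscle, 3 of 5 tested genes were higher in DPC (PDGFRB, NDUFA4L2 and CSPG4) and 2 in HMC (MCAM and NOTCH3). The summed level of its 10 genes was 57.4 to 59.4 FPKM in DPC, most of it PDGFRB, and 21.4 to 23.0 FPKM in HMC, and RGS5, KCNJ8, DES and MYH11 were near 0 in both. Of the arrector pili list, the muscle that raises the hair, ITGA8, LMOD1 and SMTN were higher in DPC, and its remaining genes in the table were DES and MYH11. In the list of myoepithelial cells, contractile cells of skin glands, KRT5, KRT17 and TP63 were higher in HMC and KRT14 was not called. ACTA2 and CNN1, which are themselves among the 8 genes, and MYLK were higher in DPC. The receptor OXTR of that list was near 0 in both. Of 10 myofibroblast genes 8 were higher in DPC, led by COL1A1, THY1 and TNC, and CTHRC1 and FN1 were higher in HMC. Whether such cells had a part in the values of the 8 genes was not tested.

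The genes whose levels ran closest to those of the muscle genes were found by the distance between log2(FPKM + 1) profiles over the 6 libraries. The nearest to ACTA2 were COL1A2 at a distance of 2.04, VIM at 2.56 and COL1A1 at 2.89. CTSK at 0.99, COL5A1 at 1.61 and PRSP at 1.63 were nearest to ACTG2. MYOCD lay closest to Rnf223 at 0.11, ANKRD22 at 0.14 and ARHGEF37 at 0.15, each at 27.6 to 29.3 FPKM in HMC and at most 0.0541 FPKM on average in DPC. The distance measures level and difference together over only 6 libraries.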

How the data were processed

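The authors deposited 1 table of FPKM per gene and library. Trimmomatic, HISAT2 (2.2.1.0) and DESeq (1.20.0) stand, without roles, in the submitters' processing notes; no source used here gives the read counter, genome build or annotation. FPKM is not corrected for RNA composition. Whole reads, up to a common factor per gene, were recovered by reading the ratios between libraries as fractions. The fractions met a tolerance of 1e-09 for 100% of genes. Nearly any ratio would meet it, so that figure does not test the recovery.

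DPC minus HMC was fitted with limma (version 3.58.1, R 4.3.3) on log2(FPKM + 1), two-sided, with an intensity trend in the variance prior. The fit took 11883 genes averaging 0.5 FPKM or more, with Benjamini-Hochberg adjustment over all of them and a threshold of 0.05. Shares were compared by exact permutation (scipy 1.17.1). Tested on simulated data with 200 of 11825 genes changed, the fit recovered 38% of those changed 1.25-fold and 92% of those changed 2-fold, with 7 false calls. In the real comparison 75.9% of tested genes passed, so that count of false calls does not carry over to it. Replicates were not copies (chi-square of recovered reads per gene 2.57 to 5.54).

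The genes and lists were chosen with earlier results of these data known. Of 210 symbols in 15 lists, 101 matched directly, 68 matched by an older symbol and 41 are not analysed here. The result of 1 list is not reported here. The genes named are the 8, the largest differences (up to 3 per direction) and the most abundant gene of each list, SRF, MRTFA, MRTFB, MYH11, MYLK, MYL9, CALD1, DES and LMOD1, and the 3 nearest profiles of ACTA2, ACTG2 and MYOCD. Others were chosen after their values were seen. Alternatives were another pseudocount, other filters, 2 scalings, no variance trend, a replicate block and each library left out.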

Additional observations from a re-analysis of the deposited data

How the results depend on the processing

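All 8 genes kept their direction and stayed past the threshold under the 13 alternative settings of the fit, with limma adjusted p of at most 0.0222, which was for CSRP1 with a variance prior without trend. Median-of-ratios scaling and quantile normalization moved the share of calls higher in DPC to 48.8 and 53.8%, against 39.1% as deposited, and moved CSRP1 to 0.32 and 0.36 and CNN2 to -0.46 and -0.35. The number of regulators of smooth muscle transcription higher in DPC was 10 with a mean of at least 5 FPKM required, since fewer genes were then tested, against 16 at 0.5 FPKM. With the replicate number as a block, 8924 genes were called, against 9020 without, and the 8 genes stayed at 6 and 2. Same-numbered samples correlated by 0.02, 0.03 and 0.01 in their deviations from the group means, and other pairs by -0.04 to 0.01, so a shared origin of same-numbered cultures is not established. Summing all rows of a symbol, an alternative chosen after seeing the data, left the shares of ACTA2, ACTG2, CNN1, TPM2 and TAGLN higher in DPC. The other counts that moved by over 1.5 times were of few calls in 1 direction, in the pericyte, sarcomere, endothelial, melanocyte, myofibroblast and epithelial lists. Depth limits MYOCD in DPC and MYH11 and DES in both cell types, which rest on few reads.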
